A study of Mus musculus with 16 samples.

Results

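The cytosolic ribosomal proteins are the protein parts of the ribosomes that translate cellular mRNA, and their transcripts were followed in the newborn (P0) mouse inner ear with and without the orphan nuclear receptor COUP-TFI (gene symbol Nr2f1). Members were all probe sets of the Affymetrix MG-U74Av2 chip whose single platform gene symbol starts with Rpl or Rps and goes on as a ribosomal protein name, with Rplp0 and Rpsa included and the Rps6k kinases and symbols of pseudogene form left out. The rule found 49 probe sets of 35 genes among 12422 tested, of which 22 probe sets of 17 genes belong to the large subunit and 27 probe sets of 18 genes to the small subunit. Rps4l met the name rule, although RefSeq lists it as a transcribed pseudogene. A further 39 ribosomal protein probe sets carry several symbols, mostly a gene with its pseudogenes, and stayed outside, among them those of Rps6, Rplp1, Rps26, Rpl3, Rpl5 and Rpl10.

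Wild-type and COUP-TFI-/- newborns of strain 129SvEv were compared as whole inner ears, and each chip received a pool of RNA from several ears. The hybridizations were done in 2 sets at different times. The letters A and B of the replicate labels were taken to name them, which the labels themselves do not state. Each set held 1 RNA pool per genotype on 2 duplicate chips. This gives 8 chips, 4 pools and 2 pools per genotype, and each chip was deposited with a GCRMA normalization (log2 values) and a dChip normalization (linear intensities). COUP-TFI is absent from the mutant throughout life and in every tissue, the number of ears per pool is not given in the sources used here, and a set is at once a hybridization time and a pair of RNA pools, which cannot be told apart.

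The Nr2f1 probe set read 7.74 to 8.83 on the 4 wild-type chips and 4.68 to 5.27 on the 4 COUP-TFI-/- chips in GCRMA (log2), a difference of -3.37 ± 0.11 (limma's SE, adjusted p = 5.90e-11). None of the 11 measured markers of inner ear epithelium and otic fibrocytes lay in the lower 50% of the wild-type chips, while the hair cell genes Atoh1 and Gfi1 did, 2 of 5 measured. Duplicate chips correlated across probe sets with r from 0.996 to 0.997.

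A ribosome is built from a small subunit, which reads the mRNA, and a large subunit, which joins amino acids, and nearly every protein is present once per particle. The mRNAs of these proteins are among the most abundant in growing cells. Most begin with a C followed by a run of C and T bases, the 5′ terminal oligopyrimidine (TOP) tract, through which mTORC1 signaling sets how many of them are loaded on ribosomes. Loss of 1 copy of a ribosomal protein gene can give tissue-restricted defects. In people such losses cause Diamond-Blackfan anaemia, and in the Tail-short mouse loss of an Rpl38 copy gives skeletal changes, middle ear disease and hearing loss.

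The TOP form could be seen at some of the annotated starts in RefSeq (mouse build GRCm38.p6). A start was available for 28 of the 35 member genes. A C at the start followed by at least 4 bases that are each C or T, read on the gene's strand alone, was present at a start of 5 genes, or 17.9% of the 28, against 3.01% of 27025 genes in the table. The hexamer CTTTCC lay within 50 bases of a start on the gene's strand in 11 of the 28 (39.3%, against 5.43% of all genes) and on either strand in 13 (46.4%, against 10.3%). It can overlap the tract, as in Rpl38 and Rps10. These are matches of letters at annotated starts, and a start placed a few bases off would hide a tract. The 5 starts with the TOP form are shown first, with 15 bases before the start and 15 from it, and the tract in capitals. Rps28 and Rps27l follow because their probe sets differed most between the sets, and neither has the form at the starts shown.
Rpl35a, chr16:33056467-33056496, plus strand: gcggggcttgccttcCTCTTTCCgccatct
Rpl38, chr11:114668565-114668594, plus strand: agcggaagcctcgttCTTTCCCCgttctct
Rps10, chr17:27635230-27635259, minus strand: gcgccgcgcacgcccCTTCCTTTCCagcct
Rps18, chr17:33955651-33955680, minus strand: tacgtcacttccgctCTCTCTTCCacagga
Rps27, chr3:90213634-90213663, minus strand: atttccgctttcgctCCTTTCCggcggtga
Rps28, chr17:33824548-33824577, minus strand: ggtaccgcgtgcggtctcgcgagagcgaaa
Rps27l, chr9:66946071-66946100, plus strand, the first of 2 listed starts: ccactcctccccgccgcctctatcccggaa

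In wild-type inner ears many ribosomal protein probe sets were among the brightest of the chip. Of the 49, 22 lay in the top 10% of all probe sets by mean wild-type GCRMA value, and 17 of them in the top 1%. The brightest was that of Rpl41, the smallest protein of the ribosome, at 14.26, 14.27, 14.43 and 14.41 on chips A1, A2, B1 and B2. Rplp0, the base of the stalk that brings elongation factors to the ribosome, read 13.58 to 13.75, and Rps3, which lines the channel where mRNA enters, read 12.99 to 13.16. For all 3 genes the wild-type chips lay close together.

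The remaining members were dimmer. Another 9 lay between the top 10% and the lower 50%, and 18 lay in the lower 50% of the chip. Low readings included Rps15, Rps14 and Rps20, small-subunit proteins that every ribosome holds, and Rpl39, which lines the tunnel through which the new chain leaves. Rps14 read 5.54 to 5.80 and Rpl39 5.07 to 5.20 on the wild-type chips. The dimmest of all was the Rpl38 probe set 99626_i_at, with a mean of 4.15, and the second Rpl38 probe set read 6.01 to 6.78. Each probe set responds to its target with its own strength, so brightness is not set against brightness here as an amount of transcript. In whole ears a lower value can mean fewer cells or less RNA per cell, which cannot be told apart.

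No ribosomal protein probe set passed the genotype test. In GCRMA 0 of 49 passed at an adjusted p under 0.05 with limma, against 13 of all probe sets (0.105%). In dChip 0 of 49 passed, against 1 of all (0.00805%). At an unadjusted p under 0.05 the count was again 0 in GCRMA, where 4.58% of all probe sets lay, and 0 in dChip, where 2.13% lay. The median difference, COUP-TFI-/- minus wild-type, was -0.03 in GCRMA (log2) beside 0.00 over all probe sets, and -0.02 in dChip beside -0.01. The differences ran from -0.20 to 0.19 in GCRMA and from -0.20 to 0.19 in dChip.

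The error of each difference sets the width of its 95% interval. The SE in GCRMA was 0.10 to 0.11 for every member, since with 1 residual degree of freedom it rests mostly on the spread shared over all probe sets. The 95% intervals of the 49 members reached no lower than -0.41 and no higher than 0.40. A change in GCRMA signal of more than 1.33-fold in either direction thus lay outside each of them. In dChip the intervals were wider and reached from -0.50 to 0.49. These bounds are for probe set signals. How far a change in transcript moves the signal of the dimmest and brightest probe sets was not tested.

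Rps15, whose tail reaches toward the decoding site of the small subunit, had the lowest p. Its dim probe set read 4.59, 4.66, 4.65 and 4.74 on the wild-type chips A1, A2, B1 and B2 and 4.45, 4.56, 4.31 and 4.51 on the COUP-TFI-/- chips. All mutant chips were below all wild-type chips, with a difference of -0.20 ± 0.10 (limma, unadjusted p = 0.053, adjusted p = 1.00). In dChip the difference was -0.04.

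The Rpl38 probe set 99626_i_at read 4.21, 4.15, 4.08 and 4.17 in wild-type and 4.25, 4.28, 4.52 and 4.32 in COUP-TFI-/- inner ears. The mutant chips were the higher ones without overlap, and the difference was 0.19 (95% interval -0.02 to 0.40). The other Rpl38 probe set, 99627_r_at, is brighter and gave -0.04 with overlapping chips. Rps4x, an X-linked protein of the small subunit, likewise had 1 dim probe set of 5, 162244_r_at, with no overlap between genotypes. Wild-type chips gave 4.96 to 5.09 and mutant chips 5.09 to 5.49, where chip B1 alone gave the top value. The difference was 0.18, and the 4 other Rps4x probe sets gave -0.06 to -0.01. These 3 of 49 members without overlap stand against 2.26% of all probe sets, and these are the 3 dimmest probe sets of the module in wild-type.

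With each gene given by its brightest probe set, the largest decreases after Rps15 were those of Rps20 (-0.16), Rpl7 (-0.13), Rpl8 (-0.10) and Rpl13a (-0.09). Rpl8 sits close to the site where peptide bonds form, and Rpl13a also takes part in the silencing of inflammatory mRNAs after interferon-gamma. The largest increases were those of Rps27l (0.15), Rpl7l1 (0.11), Rpl32 (0.09), Rpl39l (0.06) and Rpl19 (0.04). Rps27l, Rpl7l1 and Rpl39l are the 3 measured paralogs that exist beside a main copy, and in dChip they read 0.02, -0.05 and -0.01. The 95% interval of each of these differences held 0.

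Genotype differences also changed sign between the sets. Of the 49 members, 22 had the same sign in both sets, 13 of them negative and 9 positive, where 45.6% of all probe sets kept their sign. The members' median was -0.02 within set A and -0.01 within set B. Rps20 was the widest case: in set A its 2 mutant chips read 5.37 and 5.21 beside 5.27 and 5.20 in wild-type, and in set B they read 5.31 and 5.51 beside 5.67 and 5.90. Mutant minus wild-type came to 0.05 for set A and -0.38 for set B. For the genotype by set interaction, 0 of 49 members had p under 0.01 in limma on the 8 chips, against 6.01% of all probe sets in GCRMA and 8.37% in dChip, where the count of members was also 0. This test rests on the spread between duplicate chips, with 1 pool in each combination.

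**Figure D1:**
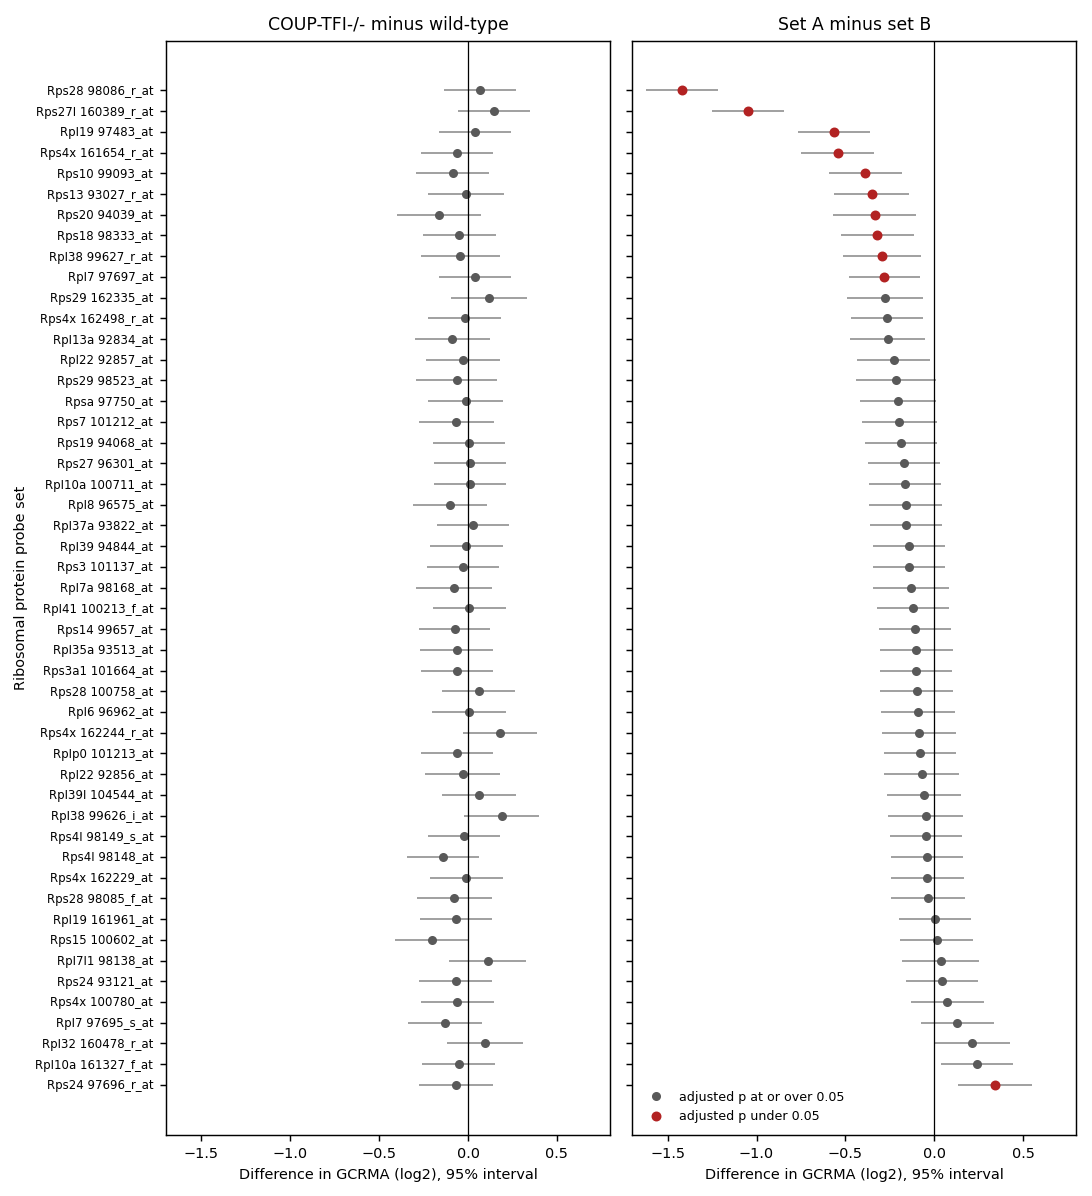
Differences in GCRMA value (log2) for each of the 49 ribosomal protein probe sets, COUP-TFI-/- minus wild-type on the left and set A minus set B on the right, with limma's 95% intervals as lines. Every genotype difference lies between -0.20 and 0.19 and none passes, while 11 set differences pass (red), 10 of them below 0.

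The members' differences between the hybridization sets were larger than those between genotypes. Their median absolute difference in GCRMA (log2) was 0.16 between sets and 0.06 between genotypes, the same as over all probe sets (0.16 and 0.06). In GCRMA the median difference, set A minus set B, was -0.13 (log2) beside -0.02 over all probe sets, and 40 of 49 members were lower in set A, where 53.2% of all probe sets were. Within wild-type the members' median was -0.10 and within COUP-TFI-/- it was -0.15. In dChip the median was -0.10 beside 0.01 over all probe sets, and 38 of 49 members were lower in set A. Small-subunit members had a median of -0.17 in GCRMA and -0.11 in dChip, and large-subunit members -0.11 and -0.08. The ribosomal protein probe sets with several symbols, which share no probe set with the 49, had a median of -0.14, and 32 of those 39 were lower in set A.

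Calls between the sets fell mostly on the lower side. Of 49 members, 10 were called lower in set A (20.4%), where 12.2% of all probe sets were, and 1 was called higher (2.04%), where 13.6% were. In dChip 3 were called lower (6.12%), beside 4.9% of all probe sets, and 0 higher, beside 6.76%. The 4 chips of set A were below all chips of set B for 18 members (36.7%), beside 20% of all probe sets, and above them for 2 (4.08%), beside 17.1%. Several members are probe sets of the same gene, and with each gene given by its brightest probe set 7 of 35 were called lower and 1 higher. Whether these shares differ from the array's was not tested.

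Rps28, a small-subunit protein tied to Diamond-Blackfan anaemia, showed the widest difference. Its probe set 98086_r_at read 5.95 and 6.13 in wild-type and 6.02 and 6.18 in COUP-TFI-/- on the set A chips. On the set B chips it read 7.28 and 7.63 in wild-type and 7.34 and 7.72 in the mutant. The genotypes lay side by side within each set, and the sets were far apart. The difference was -1.42 ± 0.10 (limma, adjusted p = 7.47e-08), or 2.68-fold higher in set B, and it was -1.27 in dChip (adjusted p = 0.00517).

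Rps27l, a paralog of Rps27 that the tumor suppressor Trp53 induces, read 6.48 to 6.75 on the set A chips and 7.52 to 7.82 on the set B chips of its only probe set, 160389_r_at. The sets did not overlap, and the difference was -1.05 ± 0.10 (adjusted p = 1.92e-06), with -1.0 in dChip (adjusted p = 0.0143). The Rps4x probe set 161654_r_at read 6.27 to 6.61 in set A and 6.72 to 7.17 in set B, a difference of -0.54 ± 0.10 (adjusted p = 0.000720), and it passed in dChip too (-0.57, adjusted p = 0.0345). In GCRMA these 3 probe sets passed in every fit that left out a chip. In dChip Rps28 and Rps27l did as well, while Rps4x lost its call without wild-type chip A1 (adjusted p = 0.0503), COUP-TFI-/- chip A1 (0.0728) or COUP-TFI-/- chip B2 (0.0505). With dChip intensities under 16 set to 16 over the whole table, none of the 3 passed (adjusted p = 0.0554 for Rps28, 0.0703 for Rps27l and 0.0795 for Rps4x), and their differences did not change.

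Rpl19, which forms a bridge between the subunits, differed on a bright probe set. This one, 97483_at, read 12.43 to 12.54 on the set A chips and 12.97 to 13.13 on the set B chips, with the genotypes intermixed. The difference of -0.56 ± 0.10 (limma, adjusted p = 0.000543) stayed past the threshold without any 1 chip, and in dChip it was -0.33 (adjusted p = 0.0889).

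The 6 other members called lower in set A differed less. Rps10, another Diamond-Blackfan gene, read 12.16 to 12.48 in set A and 12.56 to 12.73 in set B (difference -0.39). Rps13, Rps18 and Rps20, all proteins of the small subunit, differed by -0.35, -0.32 and -0.34, and Rpl38 99627_r_at and Rpl7 97697_at by -0.29 and -0.28. For Rps20 the chips of the sets overlapped, because COUP-TFI-/- chip B1 (5.31) lay below COUP-TFI-/- chip A1 (5.37). None of the 6 passed in dChip, where their differences were -0.08 to -0.39. Without wild-type chip A2 each of them lost its call, and 5 of all 49 members passed. Without COUP-TFI-/- chip A1 the count was also 5, and Rps10 was the only 1 of the 6 that passed. Rps20, Rpl38 and Rpl7 lost their calls also without either wild-type chip of set B, Rps20 and Rpl38 without COUP-TFI-/- chip B2, Rps20 without COUP-TFI-/- chip A2 and Rpl7 without COUP-TFI-/- chip B1.

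The only member called higher in set A was labelled Rps24. Its probe set 97696_r_at read 13.68 to 13.89 in set A and 13.25 to 13.59 in set B, and the difference was 0.34 ± 0.10 (adjusted p = 0.0187), with 0.26 in dChip (adjusted p = 0.148). It lost the call without wild-type chip B1 and without COUP-TFI-/- chip A1. This probe set shares its design accession with an Rpl7 probe set, 97695_s_at, which read 12.62 to 13.01 over the 8 chips and differed by 0.13. The second Rps24 probe set, 93121_at, differed by 0.04. Which transcript 97696_r_at follows is therefore uncertain.

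**Figure D2:**
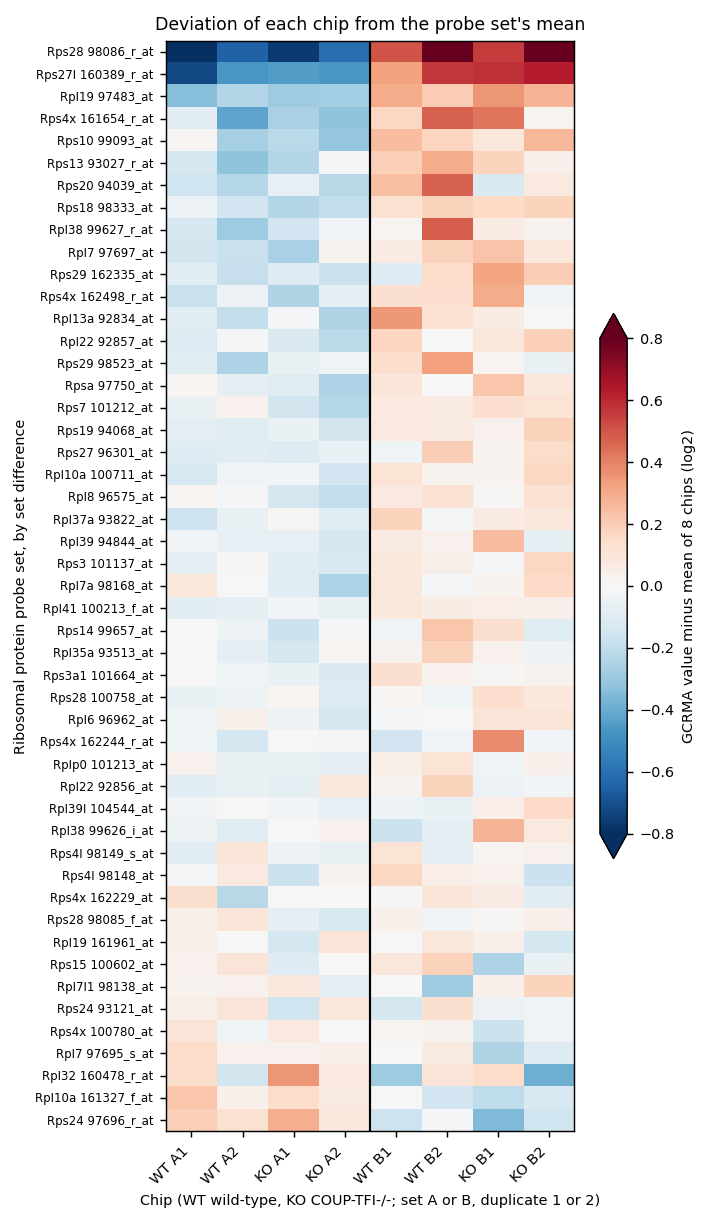
GCRMA value of each chip minus the probe set's mean over the 8 chips (log2, color scale) for the 49 ribosomal protein probe sets, ordered by the difference between set A (left of the line) and set B (right). Most rows are blue in set A and red in set B for both genotypes, most strongly in the top 2 rows (Rps28 98086_r_at, difference -1.42, and Rps27l, -1.05), with the genotypes close together within each set.

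Probe sets of the same gene often differed from one another. The module holds 10 genes with 24 probe sets among them. For Rps28 the 2 other probe sets, 100758_at and 98085_f_at, read 13.33 to 13.57 and 13.65 to 13.88 over the 8 chips and differed between the sets by -0.10 and -0.03, beside -1.42 for 98086_r_at. The probe sets 98085_f_at and 98086_r_at were designed from the same accession.

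Rps4x had 5 probe sets, whose set differences ran from -0.54 (161654_r_at) to 0.07 (100780_at, by far the brightest at 12.93 to 13.20). Its dim probe set 162498_r_at gave -0.27 (limma, adjusted p = 0.0508) and -0.43 in dChip. All its set A chips lay below all its set B chips in both normalizations. For Rpl19 the dimmer probe set, 161961_at, gave 0.00 beside -0.56. Rpl7 gave -0.28 and 0.13. Rpl10a, part of the mobile L1 stalk of the large subunit, gave -0.17 and 0.24, neither of them called, and chips of its probe set 161327_f_at were all higher in set A. In these 5 genes the set difference depended on which probe set was read.

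**Figure D3:**
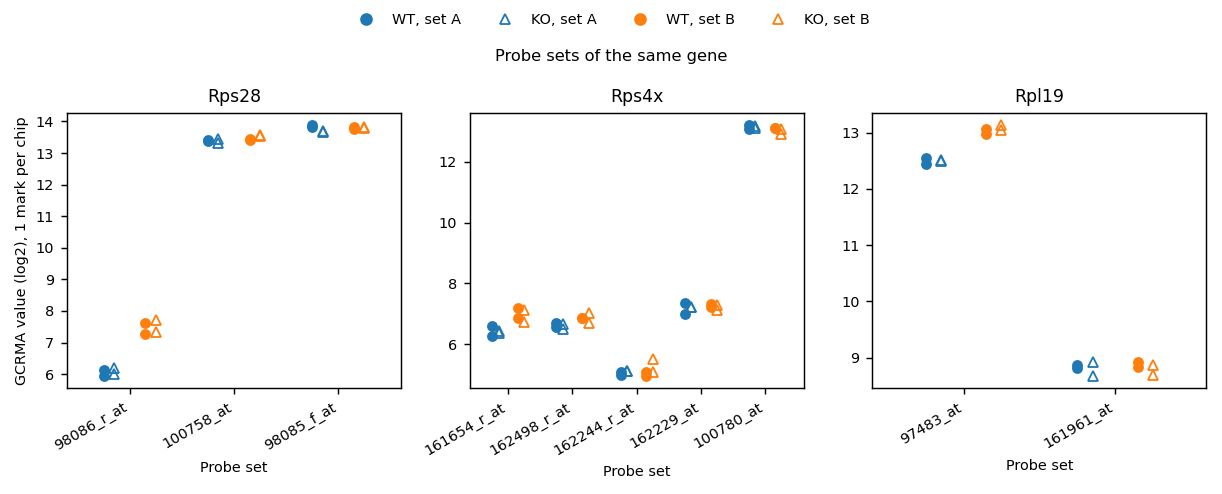
GCRMA values (log2) of each chip for all probe sets of Rps28, Rps4x and Rpl19, with set A in blue, set B in orange, wild-type as filled circles and COUP-TFI-/- as open triangles. The sets separate in Rps28 98086_r_at, Rps4x 161654_r_at and Rpl19 97483_at, and overlap or lie close in the other probe sets of the same genes.

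The name of a probe set tells how its probes were chosen. A plain _at set was designed for 1 gene, _f_at and _s_at sets can match related genes, and _r_at and _i_at sets broke a design rule or hold fewer usable probes. Of the 9 _r_at members, 6 were called between the sets, 5 lower and 1 higher in A, beside 14.4% lower and 13.5% higher of all 901 _r_at probe sets of the chip. Of the 34 plain _at members, 5 were called (14.7%), all lower, beside 11.8% of all 9614 plain _at probe sets. The 3 members called in both normalizations, in dChip at the floor of 1, are all _r_at sets. The median set difference of the plain _at members was nevertheless -0.14, close to that of all 49.

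Set differences were compared between the normalizations, which were made from the same 8 chips. Over the 49 probe sets they correlated with r = 0.887, beside 0.719 over all probe sets, and 41 of 49 had the same sign. Rps28 98086_r_at (-1.42 in GCRMA, -1.27 in dChip) and Rps27l (-1.05 and -1.0) lay far from the other members. They can raise the members' r, which was not computed without them. All 11 members called in GCRMA had the same sign in dChip. For the genotype differences r was 0.659 over the 49, beside 0.618 over all, and 41 of 49 had the same sign.

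**Figure D4:**
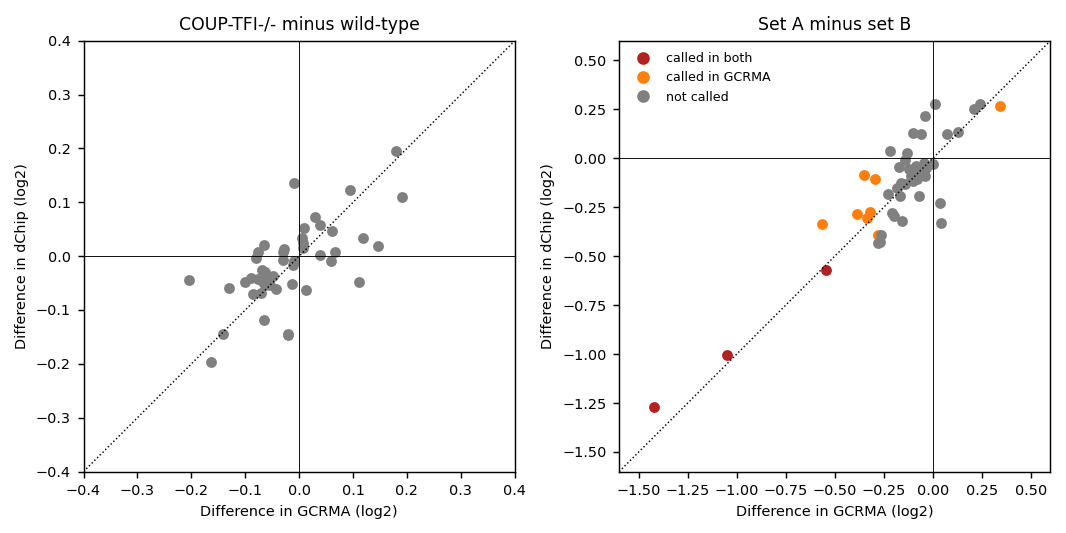
Difference in GCRMA (log2, x axis) against difference in dChip (log2, y axis) for the 49 ribosomal protein probe sets, COUP-TFI-/- minus wild-type on the left and set A minus set B on the right, each panel with its own scale. Orange marks the 8 members called in GCRMA alone and red the 3 called in both. The dotted line is equality.

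Members grouped by known roles showed the same small genotype differences. Of the Diamond-Blackfan genes 8 were measured, with a median genotype difference of -0.07, each gene given by its brightest probe set. Between the sets Rps10 passed as lower and the Rps24 probe set as higher. The brightest Rps28 probe set, 98085_f_at, differed by -0.03 and did not pass, while the dim Rps28 probe set 98086_r_at passed as lower. The X-linked Rps4x and Rpl39 gave -0.06 and -0.01 in their brightest probe sets. Among members with a role described outside the ribosome or in disease, Rpl22, needed for the development of alpha-beta T cells, differed by -0.03, Rpl41 by 0.01, Rps14, lost in a form of myelodysplastic syndrome, by -0.08, Rps3 by -0.03 and Rpsa, the laminin receptor precursor, by -0.01. Rplp0, the only measured stalk protein within the rule, differed by -0.06. None passed the test.

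Other genes of translation passed in both directions in GCRMA, beside the 12.2% of all probe sets called lower and the 13.6% called higher in set A. Of 17 measured elongation and TOP-regulated genes, 5 passed as lower and 1 as higher in set A, and none passed between genotypes. Eef2, which moves the ribosome along the mRNA, differed by -0.55 between the sets, close to Rpl19, and the initiation factor subunit Eif3e by 0.46. Of 31 initiation factors, 4 passed as lower and 6 as higher in set A, led by Eif4g2 at 0.71 and Eif3b at -0.48. Of 46 ribosome biogenesis genes, 3 passed as lower and 5 as higher, led by Ftsj3, an RNA methyltransferase, at 0.62 and Nop16 at 0.54. The median set differences of the 3 lists were -0.09, 0.00 and 0.02 in GCRMA. Of the genes that passed, Eef1b2 (-0.29), Eif4ebp1 (0.31) and Surf6 (-0.48) had the opposite sign in dChip, at 0.26, -0.45 and 0.45.

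Between genotypes the largest of these differences were again small. They were -0.17 for Eif3e, 0.15 for Eif4b, -0.24 for Eif4e, -0.22 for Eif4g2, -0.19 for Nmd3 and 0.18 for Rrp1b, and none passed. The mitochondrial ribosomal proteins, which make up a separate ribosome, were measured for 61 genes, with 10 lower and 6 higher in set A in GCRMA, and none passed between genotypes. Among those that passed, Mrpl16 (0.27), Mrpl33 (0.39) and Mrpl54 (-0.33) had the opposite sign in dChip, at -0.09, -0.01 and 0.03. Mrpl18 differed between the sets by 0.65 and Mrps16 by -0.50. Between genotypes Mrpl44 differed by 0.25 and Mrps2 by 0.17. Over the 76 mitochondrial ribosomal probe sets the median set difference was -0.09 in GCRMA and -0.09 in dChip. Of these, 49 were lower in set A in GCRMA and 54 in dChip. The medians of the 49 cytosolic members were -0.13 and -0.10. Fau, which encodes a small-subunit protein fused to a ubiquitin-like peptide, passed as lower in set A (-0.34) and differed by -0.14 between genotypes.

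Among 14 regulators of growth and TOP translation, Ddit4, an inhibitor of mTORC1, was the 1 gene that passed between genotypes. Its pool means were 9.17 and 9.33 in wild-type and 9.61 and 10.26 in COUP-TFI-/- for sets A and B. It rose by 0.68 ± 0.11 (limma, adjusted p = 0.0271). In dChip the difference was 0.64 (adjusted p = 1.00), and the call was lost without wild-type chip A2 (adjusted p = 0.386), wild-type chip B1 (0.351) or COUP-TFI-/- chip A1 (0.629), after quantile normalization (0.481) or median centring (0.0778), and with no replicate block (1.00). Myc, which drives ribosomal protein transcription, had pool means of 6.0 and 5.9 in wild-type and 6.3 and 6.1 in the mutant (difference 0.27, adjusted p = 0.752). Between the sets 2 regulators passed as lower and 2 as higher in A, among them Pdpk1, the kinase upstream of Akt and S6 kinase, at 0.46 and Ddit4 at -0.40.

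Some other measures moved with the set as well. The 99th percentile of all GCRMA values was 11.70 to 11.78 on the set A chips and 11.81 to 11.90 on the set B chips, so the brightest values as a whole were lower in set A. The difference of the 3′ and 5′ control probe sets, a sign of RNA integrity, was 0.13 to 0.33 for Gapdh and 0.68 to 0.82 for Actb, and the chips of the sets overlapped in both. The marker counts here are calls in GCRMA. Of 10 neuron markers 8 passed as higher in set A, with a summed dChip intensity of 7009 to 7549 beside 5586 to 6692 in set B. Of 11 inner ear markers 7 passed as higher (12260 to 13627 beside 10126 to 11164), and of 7 pituitary and brain markers 5 did (4457 to 6292 beside 2856 to 4228). Of 5 erythroid markers 2 passed as higher (21025 to 21571 beside 16863 to 17743). Of 7 cartilage and bone markers 3 passed as lower and 1 as higher (19305 to 22195 beside 23641 to 26689). Of 8 lymphocyte markers 3 passed as lower (1842 to 1954 beside 1789 to 2027), of 5 fat markers 3 as higher (1694 to 2047 beside 1592 to 1842) and of 10 striated muscle markers 3 as higher (17810 to 19394 beside 12010 to 22268). Of 12 proliferation markers 2 passed as lower and 1 as higher (8233 to 8895 beside 8209 to 8567). Of 10 neutrophil markers 2 passed as lower and 2 as higher. Of 9 macrophage markers 1 passed as higher, of 5 glia markers 1 as higher and of 5 hair cell markers 1 as lower. The part of each in the ribosomal protein differences was not tested. Between genotypes 2 of 10 striated muscle markers passed as higher in the mutant, with sums of 12010 to 19394 on the wild-type chips and 17810 to 22268 on the mutant chips. Pool means (wild-type A and B, mutant A and B) were 12.93, 11.96, 12.90 and 12.88 for Acta1. They were 7.26, 6.49, 7.74 and 7.60 for Myh3, and 8.10, 6.75, 8.66 and 8.16 for Myh8. Wild-type set B was thus lowest for the 3 that passed between the sets. The paper took interacting genes, rich in striated muscle classes, as possible contamination during dissection, which was not tested here. Of 5 measured fat markers 1 passed as lower in the mutant, Ucp1 (-1.26, limma, adjusted p = 0.000258). Of 5 measured glia markers 1 did, Fabp7 (-0.58, adjusted p = 0.0389). The median genotype differences of the 2 lists were -0.29 and -0.03. No ribosomal protein passed, and 0.105% of all probe sets did.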

How the data were processed

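RNA was measured in 8 chips, deposited as 16 samples because each chip came with 2 normalizations. The log2 values were made by the authors with GCRMA, and the dChip values are deposited intensities on a linear scale; software versions are not given in the sources used here. Background correction and summarization are thus the authors', and no raw probe signals were used. Genes were named from the platform annotation. Of 12488 probe sets, 66 controls were left out, 10833 of the 12422 tested had 1 symbol, 396 several and 1193 none. For dChip, 89 values under 1 were set to 1 before log2, and 1 probe set with a missing value was left out.

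Duplicate chips were averaged. Genotype and set were fitted on the 4 pool means with limma 3.58.1 (R 4.3.3, statmod 1.5.0). The 1 residual degree of freedom was joined by limma's prior, which was 14.3 for GCRMA and 4.55 in dChip. The threshold was an adjusted p under 0.05 (Benjamini-Hochberg over all probe sets, 2-sided). The interaction used the 8 chips. The labels give each replicate a letter (A, B) and a number and do not name a hybridization set. The letter was taken as the set that pairs the pools, as the methods describe 2 sets. Over all probe sets in GCRMA (log2), duplicate chips differed by a median of 0.09. Same-number chips of different letter differed by 0.18. The set differences of the 2 genotypes had a correlation of r = 0.752. Whether the animals of the pools differ between sets is not given in the sources used here, so p-values measure the spread between these pools. The number of chips limits the precision.

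The members and gene lists were chosen with earlier results of these data known. Named genes are the 5 largest differences each way for genotype and set (each gene by its brightest probe set), the members that passed, members of short role lists, the 3 genes whose probe sets lay furthest apart, the 2 largest of each pathway list, and Nr2f1. A gene named outside it (Rpl10a, and Rpl7 and Rps24 as probe set pairs) was chosen after its values were seen. Scripts were tested on simulated data. Start sequences are RefSeq's (GRCm38.p6), and protein sequences were not used here. The closing section gives the alternatives: other normalizations, filters, subsets, fits and leaving out each chip.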

Additional observations from a re-analysis of the deposited data

Results flagged for a closer look

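In 4 of 128 groups of 4 chips (32 named probe sets, 2 genotypes and 2 normalizations), 1 chip lay far from the others. Its gap to the nearest neighbor, as a share of the group's range, was above Dixon's 95% critical value. Chance flags about 1 in 20 groups of 4 independent values. The chips of a group here are duplicates of 2 pools, and both normalizations use the same chips, so that rate need not apply. In GCRMA, Rpl7l1 read 6.77 on wild-type chip B2 beside 7.05 to 7.09 on the others (ratio 0.872). Rps14 read 5.80 on the same chip beside 5.54 to 5.59 (ratio 0.843). The Rps4x probe set 162244_r_at read 5.49 on COUP-TFI-/- chip B1 beside 5.09 to 5.12 (ratio 0.921), and this chip widens its genotype difference of 0.18. In dChip, the Rpl7 probe set 97695_s_at had an intensity of 8254 on wild-type chip A1 beside 7448 to 7572 (ratio 0.847).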

How the results depend on the processing

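The genotype test called 0 members under every alternative run, in GCRMA and dChip, including limma with 8 chips as replicates (159 calls over all probe sets), the RNA pool as a random block (27), the methods' analysis of variance (256) and the fit with no replicate block, which called 0 members and 0 probe sets in all, with 0 members at an unadjusted p under 0.05. The members' median genotype difference stayed below 0: -0.022 after quantile normalization, -0.037 after median centring, -0.043 with 1 probe set per gene, -0.040 without lettered probe sets, and -0.045 to -0.016 leaving out each chip. The median set difference ran from -0.15 to -0.095 over its alternatives. The count of set calls (11) was 3 in dChip, 5 among the 34 probe sets without a letter suffix, 22 with 8 chips as replicates, 19 with the pool as a random block, 7 by the analysis of variance, and 5 to 13 leaving out each chip. Without the Rps24 probe set of shared design accession, chosen after seeing the data, it was 10. In dChip the count of 3 became 0 with values under 16 set to 16, and 2 to 6 leaving out each chip, with 6 without wild-type chip B2 or COUP-TFI-/- chip A2. Interaction counts were 1 after median centring, 1 among the 34 members kept by the filter on dim probe sets, and 0 to 3 leaving out each chip, with 3 without wild-type chip B1. The causes were not tested. Over 11 alternatives the adjusted p ran from 1.45e-20 to 0.00517 for Rps28 98086_r_at, from 2.83e-13 to 0.0143 for Rps27l, from 3.82e-05 to 0.0345 for Rps4x 161654_r_at and from 4.97e-05 to 0.0889 for Rpl19 97483_at. No called set difference of a named member changed sign, and 36 of their fits lost the call. With 2 pools per genotype, differences inside the intervals given remain possible, and the ends of the intervals are not a limit of detection. The inner ear marker Tectb differed by -0.48 between genotypes in GCRMA and did not pass (limma, adjusted p = 0.106).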
